A study of Orbilia oligospora ATCC 24927 with 24 samples.

Results

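Transcript levels of the Zn2Cys6 family of fungal transcription factors were followed in the nematode-trapping fungus Arthrobotrys oligospora. The family was taken as every gene whose deposited Pfam annotation holds the Zn_clus domain (the binuclear zinc cluster that binds DNA) or the Fungal_trans domain (the regulatory region that often follows it). This gave 107 of 11479 annotated genes, and all 107 were listed in both experiments. Both domains were annotated in 48 members, Zn_clus without Fungal_trans in 39 and Fungal_trans without Zn_clus in 20. The related Fungal_trans_2 domain was annotated in 16 of the 39. Of the 20 members without an annotated zinc cluster, 5 carried a C2H2 zinc finger, so these 20 belong by the rule and are not shown to be Zn2Cys6 proteins. A Swiss-Prot match was listed for 81 members and none for 26. A match names a similar Swiss-Prot protein listed in the deposited annotation, and its role in other fungi is given below as background for that protein.

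Zn2Cys6 proteins occur mainly in fungi, where a cluster of cysteines holds a pair of zinc ions and contacts short CGG-type DNA sites. Many of them control 1 catabolic or biosynthetic pathway. Examples are GAL4 for galactose in Saccharomyces cerevisiae, nirA for nitrate in Aspergillus nidulans and UPC2 for sterol synthesis in yeast. Others sit inside the gene clusters for secondary metabolites that they control. The kinase studied here, cAMP-dependent protein kinase (PKA), is activated by cAMP, which adenylate cyclase makes. In many fungi this pathway conveys nutrient state and takes part in development and infection.

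Hyphae of the strain ATCC 24927, grown on potato dextrose agar at 28 °C, gave 24 libraries in 8 groups of 3. Libraries labelled as an AoPkaC1 deletion (a PKA catalytic subunit) were set against a wild type (WT), and libraries labelled as an AoAcy deletion (adenylate cyclase) against a WT of their own, in separate experiments. Each strain was sampled 12 h after nematode extract was given to induce traps, and untreated at 0 h, so extract and elapsed time cannot be told apart. The submitters' design text speaks of another mutant, AorlmA, and of 3 biological replicates, whereas the sample labels, which were followed here, name AoPkaC1 and AoAcy and no culture. P-values therefore measure the spread between libraries, which may be technical. Genes annotated as the deletion targets kept TPM above 0 where the label says deletion. The annotated adenylate cyclase AOL_s00080g284 had 10.3 ± 0.906 TPM in untreated Acy deletion-labelled libraries and 16.5 ± 0.777 TPM in their WT, and of 2 genes annotated as a PKA, AOL_s00043g480 (type 2) had 48.5 ± 4.03 TPM in untreated PkaC1 deletion-labelled libraries and 69.6 ± 0.943 TPM in their WT, and AOL_s00078g405 (annotated as a catalytic subunit) had 51.2 ± 5.03 TPM and 57.1 ± 1.10 TPM. The label does not say which of them is AoPkaC1. The groups are called deletion-labelled for that reason. Values are in TPM, a level per transcript length relative to the library's total, and the sequencing depth is unknown. A value after ± is the SD of 3 libraries for TPM and the standard error (SE) for a log2 fold change. Fold changes are on the log2(TPM + 1) scale, where the change of a low gene comes out too small. A member rose or fell where limma's adjusted p was below 0.05.

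The median TPM of all genes differed between groups, from 7.34 to 7.92 in libraries of the induced PkaC1 deletion-labelled group up to 22.3 to 25.0 in those of the induced Acy deletion-labelled group. A change given in TPM therefore holds a shift common to most genes, and every comparison was repeated with libraries scaled to the same median. Members whose fold change is printed with an SE passed the test in the same direction with and without scaling. WT libraries of the PkaC1 experiment lay unusually close together, with a median coefficient of variation of 2.79% and 3.18% over members at 10 TPM or more (untreated and then induced), whereas the other 6 groups had 5.27% to 17.4%. Counts in comparisons that use this WT are also given with 1 library (a mean) standing for each of its groups. SEs and p-values of single members treat its libraries as separate. Where those libraries are technical repeats, these SEs and p-values are too small. In bulk RNA, fewer cells of a type and less RNA per cell cannot be told apart. Markers of conidia (spores), a cell form the plates could hold, summed to 47.4 to 76.4 TPM in induced and 39.9 to 40.6 TPM in untreated PkaC1 deletion-labelled libraries, and to 11.3 to 11.9 TPM and 21.3 to 23.2 TPM in their WT. With Acy the sums were 1067 to 1225 TPM in induced and 1225 to 1377 TPM in untreated deletion-labelled libraries, against 6909 to 8747 TPM in induced and 562 to 926 TPM in untreated WT. The list had 6 genes, 4 of them tested in each experiment, and these did not all move in 1 direction. On induction in PkaC1 deletion-labelled libraries 1 was higher and 2 lower, against 19.4 and 62.2 percent of all tested genes. In induced Acy deletion-labelled over WT libraries 1 was higher and 2 lower, against 45.5 and 13.7 percent. Untreated, 2 (PkaC1) and 3 (Acy) were higher than in WT and 0 lower, against 40.7 and 26.6 percent higher. The part of the list in the results below was not tested.

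The family was expressed at moderate levels. Of all TPM in a library, members held 0.292% to 0.499% (PkaC1 experiment) or 0.252% to 0.361% (Acy experiment). The median member stood at 12.2 to 30.3 TPM and at 14.7 to 25.8 TPM, close to or above the median of all genes. At least 1 TPM was reached by 97 to 103 members per library with PkaC1 and by 103 to 106 members per library with Acy. By the mean over the 12 libraries of an experiment, the most abundant member of both was AOL_s00083g490, which matches FCR1, a Candida albicans regulator of drug resistance. In the PkaC1 experiment it was followed in this mean by AOL_s00006g80 without a match, AOL_s00076g45, which matches the sexual development regulator pro1 of Neurospora crassa, AOL_s00006g165, which matches the citrinin cluster regulator ctnR of Monascus, and AOL_s00088g59 without a match. Next in the Acy experiment were AOL_s00110g185, which matches the pestheic acid cluster regulator ptaR3, the same pro1 match, AOL_s00004g467, which matches the Candida adherence regulator TRY5, and AOL_s00215g778 without a match. The order differed between groups. The pro1 match had the highest group mean in untreated PkaC1 deletion-labelled libraries (463 TPM, against 367 TPM for the FCR1 match) and in untreated and induced Acy deletion-labelled libraries (187 and 154 TPM, against 113 and 99.9 TPM), and the ptaR3 match in untreated WT of the Acy experiment (343 TPM, against 264 TPM).

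Few members were near 0. The lepE match AOL_s00173g375 (lepE belongs to the leporin cluster of Aspergillus flavus) was listed at 0 in 9 of the 12 libraries of the PkaC1 experiment. The other 3, the untreated PkaC1 deletion-labelled libraries, had 16.2, 12.7 and 9.61 TPM. The same gene had 14.3 to 26.7 TPM in every library of the Acy experiment. AOL_s00007g368 was at 0 to 0.26 TPM in libraries of the PkaC1 experiment and at 4.33 to 7.22 TPM in those of the Acy experiment, and the SUC1 match AOL_s00097g4 was at 0.08 to 0.85 TPM and at 3.13 to 6.16 TPM. The bikaverin cluster match bik5, AOL_s00078g415, stayed under 1 TPM in all 24 libraries. These contrasts lie between experiments, whose tables were normalized separately, and were not tested. By TPM as deposited, the most even member of the PkaC1 experiment was AOL_s00078g223, a match of the equisetin cluster regulator eqxF. Its group means of 93.4 to 102.5 TPM differed by at most 1.1 times. After scaling, its log2 response to induction was higher by 0.66 in deletion-labelled than in WT libraries (limma adjusted p = 0.00547).

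In untreated hyphae, 71 of 103 tested members differed between PkaC1 deletion-labelled and WT libraries, against 64.7 percent of all tested genes. Of these, 41 were higher and 30 lower, against 40.7 and 24 percent. After scaling the split turned to 30 higher and 40 lower, against 29.7 and 33.1 percent, and 60 members passed in the same direction both ways, against 53.7 percent. With WT groups as 1 library each, 36 members passed. All counts of this comparison, here and below, include AOL_s00110g288 and AOL_s00173g375 among the tested members. Both passed the filter on low values through the untreated deletion-labelled group alone and had to differ there. In this comparison the family moved about as often as other genes. In the plot of called shares, members and all tested genes had similar shares in most comparisons. Exceptions were the inductions in the Acy experiment, where the share of members was the smaller, as given below.

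**Figure D1:**
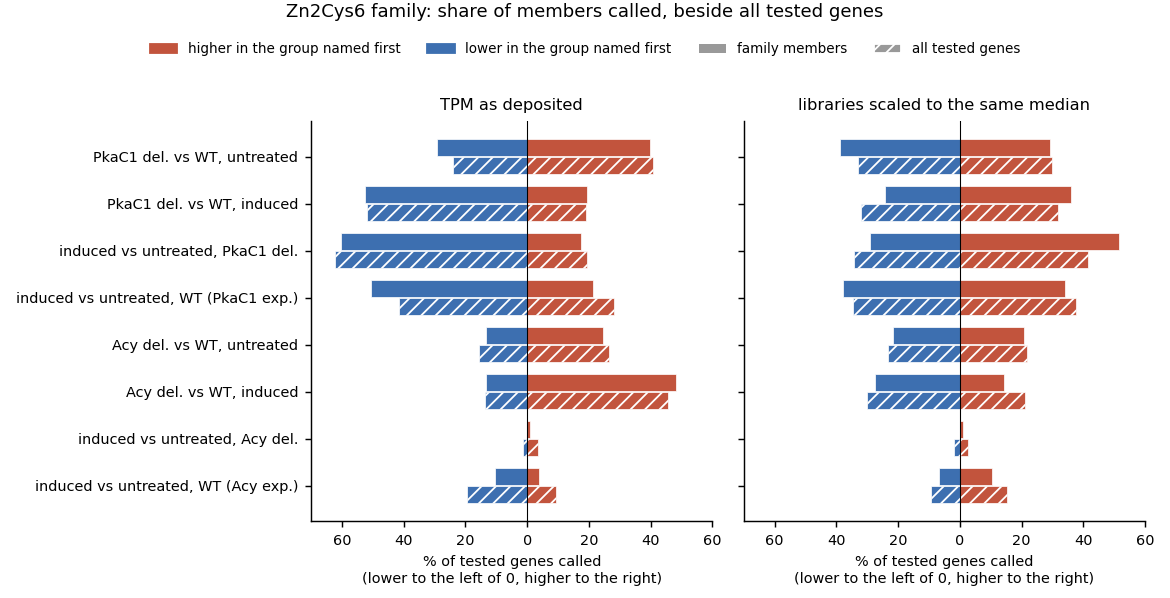
Share of tested family members (plain bars) and of all tested genes (hatched bars) that were called higher (right) or lower (left) in the group named first, for 8 comparisons, with TPM as deposited (left panel) and with libraries scaled to the same median (right panel). In untreated PkaC1 deletion-labelled libraries 39.8% of members were higher and 29.1% lower as deposited, against 29.1% and 38.8% after scaling.

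The largest decrease was in a match of a sugar regulator. ARA1, the L-arabinose regulator of Magnaporthe oryzae, is matched by AOL_s00083g275, which had 3.90, 2.36 and 3.25 TPM in untreated PkaC1 deletion-labelled libraries, against 44.1, 47.2 and 45.0 TPM in untreated WT. Every deletion-labelled library lay far below every WT library, and the log2 fold change was -3.49 ± 0.15 (limma adjusted p = 4.42e-09). The GAL4 match AOL_s00215g261 had 3.58, 2.69 and 1.83 TPM, against 15, 14.7 and 13.2 TPM in WT, and fell by the next largest amount in this class (-2.07 ± 0.15). None of the other 3 tested sugar matches fell, and the SUC1 match AOL_s00043g802 was higher as deposited only. XlnR, a xylanase regulator, is matched by AOL_s00006g84 at 7.06 ± 0.797 TPM, against 6.79 ± 0.417 TPM in WT.

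Among 10 matches to nitrogen regulators, 2 rose and 5 fell in untreated PkaC1 deletion-labelled libraries, 1 and 5 of them also after scaling, against 40.7 and 24 percent of all tested genes as deposited. The deepest fall was in AOL_s00078g533, a match of uaY, which activates purine use in Aspergillus nidulans. It had 2.82, 3.34 and 2.62 TPM, against 19.9, 19.1 and 19.6 TPM in WT, with no overlap (-2.39 ± 0.14). The next gene by locus tag, AOL_s00078g534, matches acu-15, the acetate regulator of Neurospora, and moved with it. Its levels were 4.95, 5.34 and 4.70 TPM, against 30.9, 34.9 and 34.7 TPM in WT (-2.52 ± 0.10). The nirA match AOL_s00080g440, the most abundant nitrogen match, fell to 90.7 ± 4.86 TPM, against 163 ± 4.44 TPM in WT (-0.84 ± 0.07). In the other direction, the match of nit-4 (the nitrate regulator of Neurospora), AOL_s00004g609, rose to 40.3 ± 4.78 TPM, against 27.6 ± 0.0551 TPM in WT (0.52 ± 0.08).

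Matches of secondary metabolite cluster regulators moved in no common direction in untreated PkaC1 deletion-labelled libraries. Of 14 tested, 4 rose and 4 fell, 3 and 4 of them both ways. The 4 that rose include the lepE match AOL_s00173g375, which passed the filter through this group alone and had to differ. The yanR match AOL_s00097g513 (yanR belongs to the yanuthone cluster of Aspergillus niger) rose to 27.9 ± 2.58 TPM, against 17.5 ± 0.663 TPM in WT (0.64 ± 0.11). The fsa6 match AOL_s00097g330 (fsa6 belongs to the fusarisetin cluster) fell to 5.67 ± 0.746 TPM, against 10.1 ± 0.537 TPM (-0.73 ± 0.12).

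All 5 matches in the acetate class are to acu-15, and they did not move together. Besides AOL_s00078g534, AOL_s00173g90 fell (27.2 ± 2.60 TPM against 47.8 ± 2.91 TPM in WT, -0.79 ± 0.08). AOL_s00079g449, the most abundant of them, rose to 115 ± 9.55 TPM, against 67.0 ± 2.68 TPM in WT (0.77 ± 0.07), as did AOL_s00007g13 (6.07 ± 0.754 TPM against 3.89 ± 0.465 TPM, 0.53 ± 0.12). The fifth, AOL_s00083g177, was at 6.39 ± 1.29 TPM, against 7.21 ± 0.326 TPM in WT, and did not pass the test.

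The largest increase with a level above 0 in both groups was in the pro1 match AOL_s00076g45. It had 587, 395 and 409 TPM in untreated PkaC1 deletion-labelled libraries, against 109, 103 and 104 TPM in WT. The groups did not overlap and the log2 fold change was 2.10 ± 0.13 (limma adjusted p = 1.01e-07). The second pro1 match, AOL_s00004g189, was at 16.4 ± 0.135 TPM, against 16.1 ± 0.567 TPM in WT. AHR1, a regulator of adhesion and hyphal growth in Candida albicans, is matched by AOL_s00054g24, which fell to 22.6, 19.8 and 19.4 TPM, against 57.5, 56.4 and 55.0 TPM in WT (-1.41 ± 0.09). The TRY5 match AOL_s00004g467 rose to 137 ± 19.7 TPM, against 70.1 ± 1.19 TPM in WT (0.95 ± 0.10).

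In the class of sterol, drug and stress matches, the FCR1 match AOL_s00083g490 had 257, 409 and 436 TPM in untreated PkaC1 deletion-labelled libraries, against 873, 917 and 897 TPM in WT (-1.32 ± 0.15). The 4 UPC2 matches differed among themselves: AOL_s00054g280 fell (-0.80 ± 0.16), AOL_s00076g480 and AOL_s00097g406 rose (0.61 ± 0.17 and 0.65 ± 0.14), and AOL_s00079g64 was at 26.6 ± 6.13 TPM, against 27.7 ± 0.412 TPM in WT. A 2-fold or larger change was called for 22 members, 21.4% of those tested, against 23.1 percent of all tested genes. Those that rose included AOL_s00004g238 without a match (8.73 ± 1.17 TPM against 1.44 ± 0.367 TPM in WT, 2.0 ± 0.16), AOL_s00083g408, which matches an uncharacterized fission yeast regulator (17.9 ± 3.03 TPM against 4.37 ± 0.796 TPM, 1.81 ± 0.16), and AOL_s00112g130, which matches the yeast protein TBS1 (47.3 ± 2.06 TPM against 13.3 ± 0.723 TPM, 1.75 ± 0.15). AOL_s00078g84 was also called higher, with 45.0, 24.6 and 19.9 TPM against 12.3, 14.8 and 3.35 TPM in WT, but its call was lost after scaling (limma adjusted p = 0.063). Further decreases were in AOL_s00215g778 without a match (50.6 ± 13.1 TPM against 162 ± 4.52 TPM, -1.69 ± 0.14) and AOL_s00043g432 (43.2 ± 6.72 TPM against 129 ± 2.02 TPM, -1.57 ± 0.10).

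**Figure D2:**
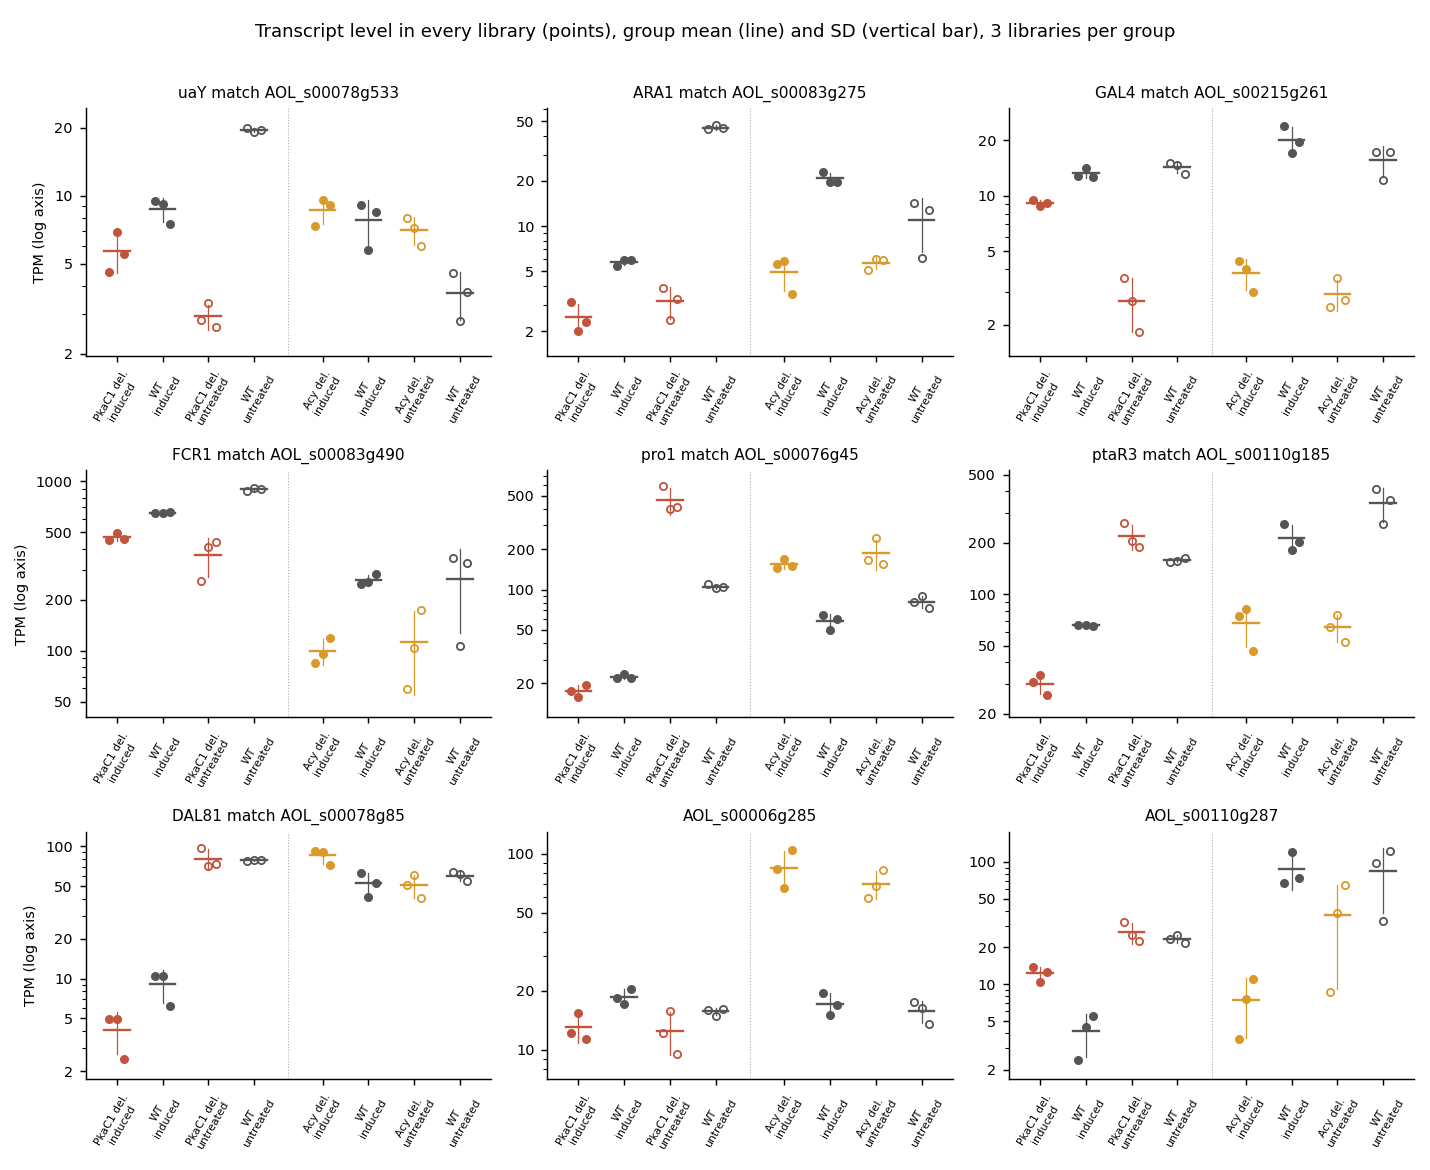
TPM on a log axis for 9 members in all 24 libraries, 3 points per group with the mean as a line and the SD as a vertical bar; filled points are induced and open points untreated, and the dotted line parts the experiments. The pro1 match AOL_s00076g45 was highest in untreated PkaC1 deletion-labelled libraries, and the GAL4 match AOL_s00215g261 was lowest in untreated deletion-labelled libraries of both experiments.

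After 12 h of induction, 74 of 103 members differed between PkaC1 deletion-labelled and WT libraries, against 70.9 percent of all tested genes. As deposited 20 were higher and 54 lower, against 18.9 and 52.0 percent. After scaling 37 were higher and 25 lower, against 31.8 and 32.1 percent, and 45 passed in the same direction both ways, against 51.0 percent. With WT groups as 1 library each 43 passed. The median log2 fold change of members was -0.31 as deposited and 0.08 after scaling, against -0.39 and 0.00 over all tested genes. In this comparison 13 members changed 2-fold or more, 12.6% of those tested, against 23.8 percent of all tested genes.

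The largest increase was in AOL_s00078g224, a match of prlR of the pyrrolocin cluster. It had 15.3, 9.84 and 10.8 TPM in induced PkaC1 deletion-labelled libraries, against 1.42, 0 and 2.71 TPM in induced WT, 1 of which listed it at 0. The log2 fold change was 2.62 ± 0.47 (limma adjusted p = 3.75e-04). Its neighbour by locus tag, the eqxF match AOL_s00078g223, was at 103 ± 2.03 TPM, against 101 ± 0.540 TPM in WT. AOL_s00076g409, which has the Fungal_trans domain only, had 15.7, 14.5 and 16 TPM, against 2.99, 2.63 and 3.03 TPM in WT (2.08 ± 0.11). AOL_s00110g287 without a match had 13.8, 10.5 and 12.5 TPM, against 2.40, 4.49 and 5.55 TPM (1.41 ± 0.22). CZF1, a regulator of hyphal growth in Candida albicans, is matched by AOL_s00054g776, which rose to 10.9 ± 0.287 TPM, against 4.62 ± 0.129 TPM in WT (1.08 ± 0.10). The match of CTF1 beta, a cutinase gene regulator of Fusarium, AOL_s00076g415, had 117, 109.6 and 112 TPM, against 56.2, 56.2 and 55.7 TPM in WT (1.00 ± 0.07).

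The deepest fall was in AOL_s00076g22, which matches an uncharacterized fission yeast regulator. It had 19.1, 17.4 and 18.5 TPM in induced PkaC1 deletion-labelled libraries, against 80.4, 80.5 and 80.4 TPM in induced WT (-2.08 ± 0.09). The aurR2 match AOL_s00079g268 (aurR2 belongs to the aurofusarin cluster) fell to 1.31 ± 0.358 TPM, against 5.34 ± 0.0473 TPM (-1.47 ± 0.14). All 4 of the UPC2 matches and the ECM22 match had lower means in deletion-labelled libraries, where 52.0 percent of all tested genes were called lower as deposited. AOL_s00054g280 (1.38 ± 0.229 TPM against 5.45 ± 0.179 TPM, -1.44 ± 0.16), AOL_s00079g64 (-0.87 ± 0.13), AOL_s00097g406 (-0.72 ± 0.14) and the ECM22 match AOL_s00176g58 (9.54 ± 1.19 TPM against 18.8 ± 0.648 TPM, -0.91 ± 0.10) passed, and AOL_s00076g480 did not.

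LEU3, the leucine synthesis regulator of yeast, is matched by AOL_s00140g62, which fell to 19.3, 21.1 and 20.8 TPM, against 50.2, 49.9 and 48.5 TPM in WT (-1.24 ± 0.08). The PPR1 match AOL_s00173g126 (PPR1 controls pyrimidine synthesis in yeast) fell to 16.1 ± 0.550 TPM, against 29.6 ± 0.579 TPM (-0.84 ± 0.09). All 5 tested sugar matches were lower as deposited, against 52.0 percent of all tested genes. After scaling 3 of them were also lower, against 32.1 percent. These were ARA1 (-0.98 ± 0.15), the sucrose regulator match SUC1, AOL_s00043g802 (-1.13 ± 0.11), and the xlnR match (-0.75 ± 0.11). Of the 10 nitrogen matches 2 rose and 8 fell, 2 and 4 of them both ways, where 18.9 percent of all tested genes were higher and 52.0 percent lower as deposited. The uaY match AOL_s00080g113 rose to 22.5 ± 0.793 TPM, against 15.8 ± 0.161 TPM in WT (0.48 ± 0.08), and the nirA match AOL_s00080g440 to 55.7 ± 3.82 TPM, against 37.3 ± 0.696 TPM (0.56 ± 0.07). The nit-4 match fell to 16.2 ± 0.306 TPM, against 24.8 ± 0.384 TPM (-0.58 ± 0.08).

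**Figure D3:**
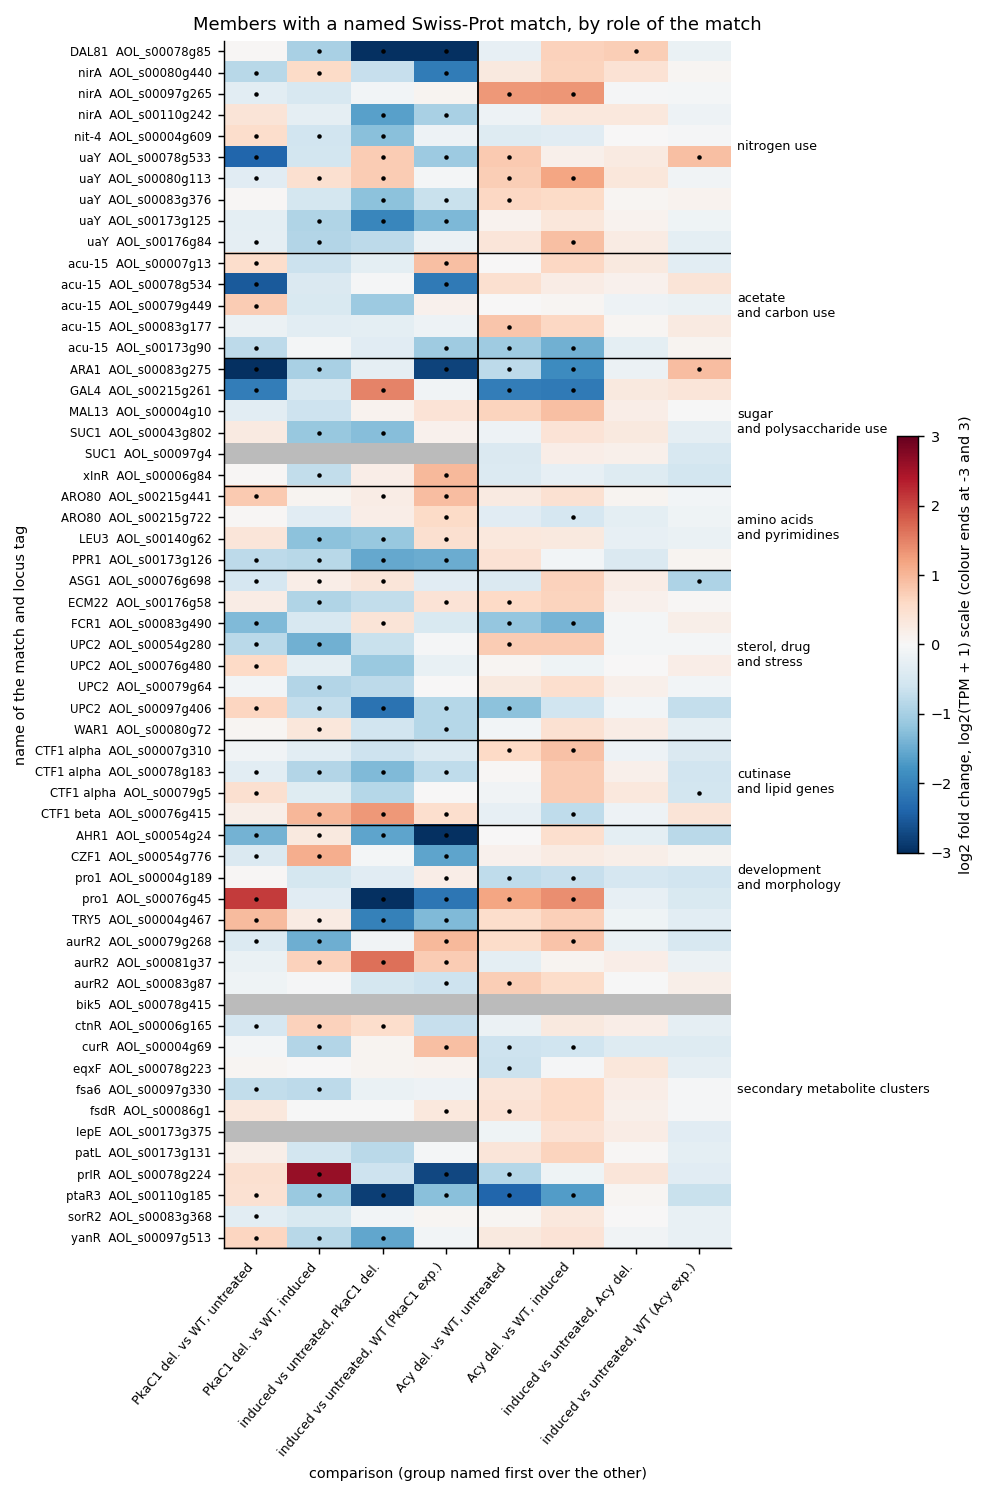
Log2 fold changes of the 57 members with a named regulator as their match, grouped by the role of the match, in 8 comparisons (columns, the group named first over the other); dots mark members called in the same direction with and without scaling, and grey cells are members not tested or listed at 0 in a group. The GAL4 row is blue in all 4 columns that set deletion-labelled against WT libraries and has a dot in 3 of them, and the only dot for induction of Acy deletion-labelled libraries is that of DAL81.

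Comparing induced with untreated libraries, 80 of 103 members differed in PkaC1 deletion-labelled libraries and 74 in their WT, against 81.6 and 69.7 percent of all tested genes. In deletion-labelled libraries 18 were higher and 62 lower as deposited, against 19.4 and 62.2 percent. After scaling 53 were higher and 30 lower, against 41.5 and 34.4 percent, and 48 passed in the same direction both ways, against 53.8 percent. In WT 22 were higher and 52 lower, against 28.1 and 41.6 percent. After scaling 35 were higher and 39 lower, against 37.5 and 34.5 percent, and 61 passed in the same direction both ways, against 62.6 percent. With WT groups as 1 library each 76 and 39 passed. The response itself differed between deletion-labelled and WT libraries for 76 members, against 71.9 percent of all tested genes, and for 45 with WT groups as 1 library each. Of the 76, 22 had a higher and 54 a lower response, against 18.0 and 53.9 percent. After scaling 39 were higher and 28 lower, against 33.1 and 31.0 percent, and 50 passed in the same direction both ways, against 49.0 percent.

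The members that fell most on induction included matches of development regulators. Of 5 in that class, 0 rose and 4 fell in deletion-labelled libraries, 3 of them also after scaling. In WT 1 rose and 4 fell, all 5 also after scaling. Of all tested genes, 19.4 percent rose and 62.2 percent fell in deletion-labelled libraries, and 28.1 and 41.6 percent in WT, as deposited. The AHR1 match AOL_s00054g24 had 6.21 ± 0.200 TPM in induced PkaC1 deletion-labelled libraries, against 20.6 ± 1.74 TPM in untreated ones (-1.58 ± 0.09). In WT it had 5.40, 5.04 and 4.35 TPM after induction, against 57.5, 56.4 and 55.0 TPM untreated, the largest decrease in WT (-3.28 ± 0.09). The pro1 match AOL_s00076g45 had 17.5, 15.8 and 19.6 TPM in induced and 587, 395 and 409 TPM in untreated PkaC1 deletion-labelled libraries, a log2 fold change of -4.62 ± 0.13, and 22.5 ± 0.934 TPM against 105 ± 3.53 TPM in WT, or -2.18 ± 0.13. Its response differed between the strains by -2.44 ± 0.19 (limma adjusted p = 8.67e-07). After induction both groups stood within 15.8 to 23.6 TPM, and all 3 untreated deletion-labelled libraries lay above all 3 untreated WT libraries. The DAL81 match AOL_s00078g85 (DAL81 is a co-regulator of nitrogen genes in yeast) had 4.93, 4.97 and 2.45 TPM in induced deletion-labelled libraries, against 97.2, 71.7 and 73.7 TPM in untreated ones (-4.03 ± 0.23), and 10.4, 10.5 and 6.16 TPM against 77.9, 79.3 and 79.2 TPM in WT (-3.02 ± 0.23). The gene before it by locus tag, AOL_s00078g84, was listed at 0 in all 3 induced deletion-labelled libraries and at 0.23, 3.42 and 0 TPM in induced WT, so no fold is given for it.

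Several members that were lower in untreated deletion-labelled libraries than in untreated WT fell on induction in WT. ARA1 had 2.47 ± 0.577 TPM in induced and 3.17 ± 0.773 TPM in untreated deletion-labelled libraries, and 5.78 ± 0.303 TPM in induced and 45.4 ± 1.60 TPM in untreated WT (-2.78 ± 0.15). Its response was higher by 2.52 ± 0.21 in deletion-labelled libraries, the largest positive difference. AOL_s00215g778 (2.24 ± 0.20), the acu-15 match AOL_s00078g534 (2.09 ± 0.14), AOL_s00043g432 (2.04 ± 0.14) and the uaY match AOL_s00078g533 (1.84 ± 0.20) also had a higher response there. The last of these rose on induction in deletion-labelled libraries (0.75 ± 0.14) and fell in WT (-1.09 ± 0.14). The GAL4 match rose on induction in deletion-labelled libraries, to 9.53, 8.86 and 9.16 TPM against 3.58, 2.69 and 1.83 TPM untreated (1.49 ± 0.15), and in WT it stood at 13.2 ± 0.801 TPM induced and 14.3 ± 0.956 TPM untreated.

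Increases on induction were smaller. In deletion-labelled libraries the largest, beside GAL4, were in AOL_s00076g409 (15.7, 14.5 and 16 TPM against 4.42, 3.63 and 3.54 TPM untreated, 1.75 ± 0.11), the aurR2 match AOL_s00081g37 (141, 143 and 154 TPM against 36.5, 48.2 and 55.2 TPM, 1.64 ± 0.12) and the CTF1 beta match (1.31 ± 0.07). AOL_s00076g409 went the other way in WT, with 2.88 ± 0.220 TPM in induced and 5.10 ± 0.339 TPM in untreated libraries (-0.65 ± 0.11), and its response differed by 2.41 ± 0.15. LEU3 also responded in opposite directions. Its match had 20.4 ± 0.973 TPM in induced and 46.4 ± 4.90 TPM in untreated deletion-labelled libraries (-1.14 ± 0.08), and 49.5 ± 0.894 TPM against 35.4 ± 0.652 TPM in WT (0.47 ± 0.08). The largest increase in WT was in AOL_s00007g302 without a match, which rose in deletion-labelled libraries too (0.92 ± 0.17). In WT it had 3.23, 3.21 and 3.49 TPM in induced and 0.64, 0.18 and 0.75 TPM in untreated libraries (1.52 ± 0.17). Further increases in WT were in AOL_s00173g360 without a match (11.6 ± 0.666 TPM against 3.98 ± 0.555 TPM untreated, 1.34 ± 0.12), the xlnR match (14.4 ± 0.234 TPM against 6.79 ± 0.417 TPM, 0.98 ± 0.11), the aurR2 match AOL_s00079g268 (0.97 ± 0.14) and the match of ARO80, the yeast regulator of aromatic amino acid breakdown, AOL_s00215g441 (71.6 ± 2.27 TPM against 36.9 ± 0.513 TPM, 0.94 ± 0.09).

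**Figure D4:**
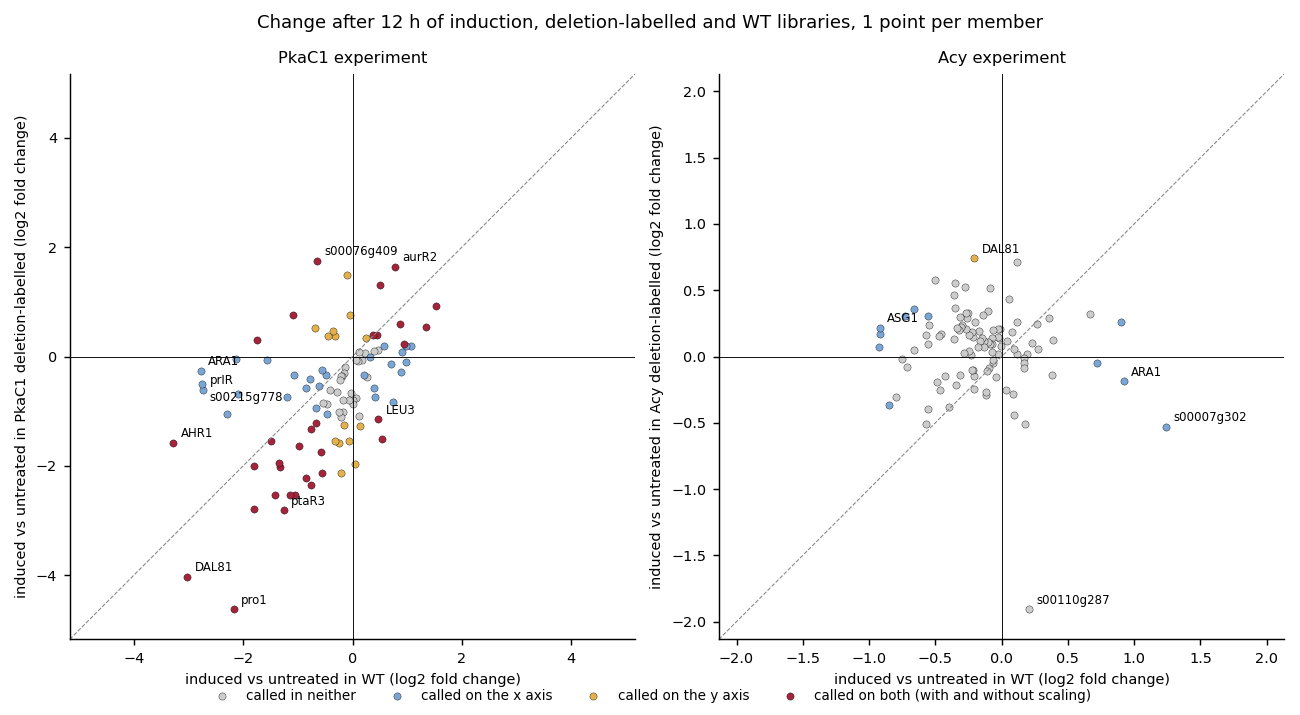
Log2 fold change on induction in deletion-labelled libraries (vertical) against WT (horizontal) for each member, in the PkaC1 experiment (left) and the Acy experiment (right); dark red points were called on both axes with and without scaling, and the dashed line marks equal responses. Members listed at 0 in a group are left out. The pro1 match lies at -4.62 and -2.18, and in the Acy experiment no member was called on both axes.

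Fewer members passed the test in the Acy experiment where the PkaC1 WT libraries count as separate. With 1 library standing for each PkaC1 WT group, this order turned in both comparisons of deletion-labelled with WT libraries. In untreated libraries 40 of 106 tested members differed between Acy deletion-labelled and WT libraries, against 42.1 percent of all tested genes. There were 26 higher and 14 lower, against 26.6 and 15.6 percent. After scaling 22 were higher and 23 lower, against 21.9 and 23.1 percent, and 36 passed in the same direction both ways, against 37.4 percent. After induction 65 differed, against 59.2 percent of all tested genes. There were 51 higher and 14 lower, against 45.5 and 13.7 percent. After scaling 15 were higher and 29 lower, against 21.2 and 29.9 percent, and 29 passed in the same direction both ways, against 34.9 percent. The median log2 fold change of members was 0.41 as deposited and -0.07 after scaling, against 0.39 and -0.09 over all tested genes.

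The largest increase at both times was in AOL_s00006g285, a member with the Fungal_trans domain and no match. It had 59.7, 68.0 and 82.7 TPM in untreated Acy deletion-labelled libraries, against 17.4, 16.4 and 13.5 TPM in untreated WT (2.08 ± 0.18, limma adjusted p = 2.17e-06). After induction it had 83.3, 66.8 and 104 TPM, against 19.5, 15.1 and 16.9 TPM in WT (2.22 ± 0.18). Every deletion-labelled library was at least 59.7 TPM and every WT library at most 19.5 TPM. Its neighbour AOL_s00006g286, which matches an uncharacterized fission yeast regulator, rose as well (0.85 ± 0.17 untreated and 1.26 ± 0.17 induced). In the PkaC1 experiment AOL_s00006g285 was at 9.51 to 20.5 TPM in all 12 libraries.

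Of 10 nitrogen matches, 4 rose and 0 fell in untreated Acy deletion-labelled libraries as deposited, against 26.6 and 15.6 percent of all tested genes, and 6 rose and 0 fell in induced ones, against 45.5 and 13.7 percent. After scaling 4 were higher and 3 lower untreated, and 3 were higher and 1 lower induced. The nit-4 match AOL_s00004g609 was 1 of those lower after scaling at both times, with 39.3 ± 7.05 TPM in untreated Acy deletion-labelled libraries, against 51.4 ± 5.92 TPM in WT, and 39.9 ± 6.81 TPM, against 50.3 ± 5.02 TPM, after induction. The nirA match AOL_s00097g265 had 43.5, 58.8 and 54.4 TPM in untreated deletion-labelled libraries, against 21.5, 21.2 and 19.1 TPM in WT (1.29 ± 0.16), and 59.1, 52.4 and 42.4 TPM, against 21.5, 17.2 and 20.1 TPM, after induction (1.33 ± 0.16). The uaY match AOL_s00080g113 rose at both times (0.74 ± 0.21 and 1.19 ± 0.21), AOL_s00078g533 untreated (7.06 ± 1.02 TPM against 3.69 ± 0.882 TPM, 0.79 ± 0.21) and AOL_s00176g84 induced (0.89 ± 0.15).

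The pro1 match AOL_s00076g45 was higher at both times, with 165, 242 and 155 TPM in untreated Acy deletion-labelled libraries, against 80.4, 89.2 and 72.9 TPM in WT (1.18 ± 0.17), and 144, 168 and 149 TPM, against 64.8, 50.1 and 60.1 TPM, after induction (1.39 ± 0.17). The second pro1 match was lower, at 23.1 ± 3.57 TPM against 40.4 ± 9.80 TPM in WT untreated (-0.76 ± 0.18) and 15.8 ± 1.28 TPM against 26.4 ± 2.74 TPM induced (-0.70 ± 0.18). Other increases after induction were in AOL_s00076g274, which has a zinc cluster, a C2H2 finger and no match (40.6, 42.3 and 28.8 TPM against 10.8, 6.40 and 10.8 TPM, 1.90 ± 0.24), AOL_s00079g92, which matches the fission yeast thiamine regulator thi1 (21.9, 19.6 and 14.6 TPM against 4.99, 3.34 and 4.71 TPM, 1.87 ± 0.20), AOL_s00083g408 (1.48 ± 0.29) and AOL_s00215g294 without a match (83.4 ± 8.10 TPM against 30.5 ± 2.19 TPM, 1.42 ± 0.13).

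Among decreases, the ptaR3 match AOL_s00110g185 had 64.3, 75.7 and 52.7 TPM in untreated Acy deletion-labelled libraries, against 412, 259 and 358 TPM in WT (-2.39 ± 0.23), and 74.7, 81.9 and 46.8 TPM, against 258, 182 and 203 TPM, after induction (-1.67 ± 0.23). The groups were far apart at both times. The GAL4 match had 2.51, 3.59 and 2.74 TPM untreated, against 17.2, 12.2 and 17.4 TPM in WT (-2.06 ± 0.20), and 4.45, 4.0 and 3.03 TPM, against 23.8, 17.1 and 19.6 TPM, induced (-2.13 ± 0.20). ARA1 was lower at both times. After induction it had 5.58, 5.86 and 3.51 TPM, against 22.9, 19.8 and 19.7 TPM in WT (-1.89 ± 0.26). In untreated libraries it had 5.12, 6.09 and 5.91 TPM, against 14.3, 6.14 and 12.7 TPM, so the lowest WT library came within 0.05 TPM of the highest deletion-labelled one (-0.78 ± 0.26). The FCR1 match had 85.2, 95.8 and 119 TPM after induction, against 246, 255 and 284 TPM in WT (-1.39 ± 0.42). The untreated groups of this gene overlapped, with 59.6, 104 and 174 TPM against 354, 107 and 329.7 TPM (-1.17 ± 0.42). The deepest fall after induction was in AOL_s00110g287, with 3.59, 7.51 and 11.1 TPM, against 67.8, 122 and 74.5 TPM in WT (-3.47 ± 0.64). Its untreated libraries spread from 8.66 to 64.7 TPM in the deletion-labelled group and from 32.9 to 123 TPM in WT and did not pass the test. AOL_s00076g409 (-1.16 ± 0.27 untreated and -1.50 ± 0.27 induced), the acu-15 match AOL_s00173g90 (-1.08 ± 0.18 and -1.45 ± 0.18) and AOL_s00006g245, a match of an uncharacterized fission yeast regulator (-1.11 ± 0.19 and -1.23 ± 0.19), were lower at both times.

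Few members passed the test of induction in this experiment. In Acy deletion-labelled libraries 1 of 106 members passed, the DAL81 match AOL_s00078g85, against 4.99 percent of all tested genes. It had 92.7, 91.3 and 72.2 TPM induced, against 51.1, 61.2 and 40.7 TPM untreated (0.74 ± 0.18). This call was lost with only those 2 groups in the fit (adjusted p = 0.0853) and when any of 6 of the 12 libraries was left out. In WT 15 of 106 differed between induced and untreated libraries, against 28.6 percent of all tested genes. There were 4 higher and 11 lower, against 9.2 and 19.4 percent. After scaling the split turned to 11 higher and 7 lower, against 15.2 and 9.29 percent, and 11 passed in the same direction both ways, against 18.5 percent. AOL_s00007g302 without a match had 5.23, 5.75 and 4.50 TPM in induced WT, against 1.60, 1.23 and 2.02 TPM in untreated WT (1.24 ± 0.23). ARA1 (22.9, 19.8 and 19.7 TPM against 14.3, 6.14 and 12.7 TPM, 0.92 ± 0.26) and the uaY match AOL_s00078g533 (9.12, 5.73 and 8.46 TPM against 4.54, 2.78 and 3.76 TPM, 0.90 ± 0.21) also rose. The ARA1 call was lost on leaving out any of 3 of the 6 WT libraries (limma adjusted p = 0.0511, 0.0573 and 0.0606). Decreases were in AOL_s00006g292, a match of the yeast regulator RSF2 (18.8 ± 3.13 TPM against 36.4 ± 3.34 TPM, -0.93 ± 0.21), and the ASG1 match AOL_s00076g698 (17.9 ± 2.33 TPM against 35.0 ± 6.91 TPM, -0.92 ± 0.17). The response differed between deletion-labelled and WT libraries for 12 members, against 19.3 percent of all tested genes. There were 11 higher and 1 lower, against 14.2 and 5.1 percent, and after scaling 5 higher and 5 lower, against 5.34 and 9.76 percent. The 12 became 3 without Acy deletion-labelled induced replicate 2, 21 without replicate 3 of that group, 7 without a filter on low values and 8 with the replicate block. AOL_s00007g302 was the 1 lower (-1.77 ± 0.33). It had 2.21, 2.96 and 1.31 TPM in induced and 4.59, 3.46 and 2.55 TPM in untreated deletion-labelled libraries. The largest higher response was in the ASG1 match (1.14 ± 0.24).

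The 2 experiments share no libraries, so differences from each WT can be set side by side for the 103 members tested in both. In untreated hyphae 15 members passed in both with the same sign, which is 21.1% of those called in the PkaC1 experiment and 37.5% of those called in the Acy experiment, and 10 passed with opposite signs (14.1% and 25% of those called). Over all genes the shares were 29.4% and 45.2% with the same sign and 13.8% and 21.1% with opposite signs. With calls that hold with and without scaling, 10 members shared a sign. Higher in both were the pro1 match AOL_s00076g45 (2.10 ± 0.13 in the PkaC1 and 1.18 ± 0.17 in the Acy experiment), AOL_s00083g408 (1.81 ± 0.16 and 0.96 ± 0.29), AOL_s00004g648 (0.88 ± 0.13 and 0.95 ± 0.25), AOL_s00007g302 (1.51 ± 0.17 and 0.78 ± 0.23) and the thi1 match AOL_s00079g92 (0.53 ± 0.13 and 0.80 ± 0.20). Lower in both were GAL4 (-2.07 ± 0.15 and -2.06 ± 0.20), ARA1, FCR1, the acu-15 match AOL_s00173g90 and AOL_s00076g409.

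**Figure D5:**
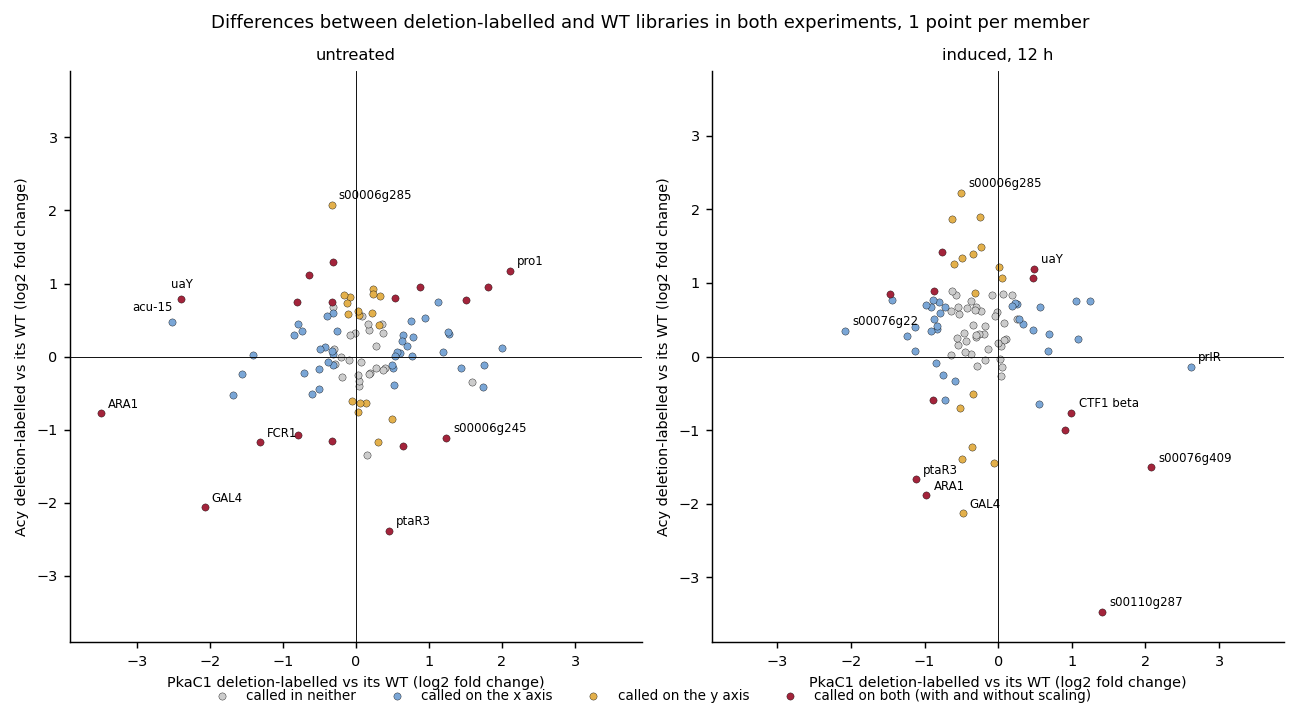
Log2 fold change of Acy deletion-labelled over WT libraries (vertical) against that of PkaC1 deletion-labelled over WT libraries (horizontal), 1 point per member, untreated (left) and induced (right); dark red points were called in both experiments with and without scaling. Members listed at 0 in a group are left out. GAL4 lies at about the same negative value on both axes in untreated libraries.

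After induction 16 members passed in both experiments with the same sign, 21.6% of those called in the PkaC1 and 25% of those called in the Acy experiment, against 20.6% and 24.8% over all genes. Opposite signs were found for 34 members, 45.9% and 53.1% of those called, against 38.1% and 45.9% over all genes. With calls that hold both ways 5 members shared a sign (11.1% and 17.9%, against 18.2% and 27.2% over all genes) and 7 had opposite signs (15.6% and 25%, against 14.0% and 21.0%). Lower in both were ARA1 (-0.98 ± 0.15 and -1.89 ± 0.26), the ptaR3 match (-1.12 ± 0.11 and -1.67 ± 0.23) and curR, a cluster regulator match, AOL_s00004g69 (-0.89 ± 0.15 and -0.60 ± 0.17). Higher in both were the uaY match AOL_s00080g113 and AOL_s00004g648 (0.47 ± 0.13 and 1.07 ± 0.25). Opposite were AOL_s00110g287 (1.41 ± 0.22 and -3.47 ± 0.64), AOL_s00076g409 (2.08 ± 0.11 and -1.50 ± 0.27) and the CTF1 beta match (1.00 ± 0.07 and -0.77 ± 0.22).

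A joint fit of all 24 libraries tested these differences for 106 members. The deletion effects differed between the experiments for 59 members untreated and 68 induced, against 48.8 and 69.9 percent of all tested genes, and the WT responses to induction for 53, against 56.5 percent. With PkaC1 WT groups as 1 library each the numbers were 36, 55 and 34. The uaY match AOL_s00078g533 and its neighbour AOL_s00078g534 had the most negative untreated differences (-3.18 ± 0.25 and -3.0 ± 0.33), and the ptaR3 match the largest positive one among members above 0 in every group (2.83 ± 0.28). The GAL4 match, with nearly the same untreated fold change in both experiments, did not pass. ARA1 had the largest difference between WT responses, -3.70 ± 0.31: it fell on induction in WT of the PkaC1 experiment and rose in WT of the Acy experiment. Such a difference between the 2 WTs cannot be told apart from other differences between the experiments.

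Genes of pathways that the matched proteins control in other fungi were counted from lists made by words in the annotation. Whether a member controls any of them here was not tested. The lists also hold proteins that their names do not describe. Examples are isocitrate dehydrogenase subunits (leucine, lysine and arginine list), 2-isopropylmalate synthase (acetate list) and geranylgeranyl transferase subunits (sterol list). Of 12 genes for nitrate, nitrite, urea and purine use, 0 were higher and 9 lower in untreated PkaC1 deletion-labelled libraries, the 9 also after scaling, against 40.7 percent of all tested genes higher and 24 percent lower as deposited. In untreated Acy deletion-labelled libraries 2 were higher and 8 lower, 1 and 8 of them both ways, against 26.6 and 15.6 percent. Nitrate reductase AOL_s00210g163 had 81.6 ± 17.4 TPM in untreated PkaC1 deletion-labelled libraries and 174 ± 3.80 TPM in WT (-1.10 ± 0.12), and 162 ± 32.4 TPM and 512 ± 76.3 TPM in the Acy experiment (-1.66 ± 0.18). The nitrate transporter AOL_s00004g610, next to the nit-4 match by locus tag, had 204 ± 75.0 TPM and 209 ± 6.77 TPM (-0.10 ± 0.19) and did not pass the test, whereas the nit-4 match rose.

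Of the 9 tested genes on the acetate and glyoxylate list, 0 were higher and 6 lower in untreated PkaC1 deletion-labelled libraries. In induced ones 7 were higher and 2 lower, the 7 also after scaling. Of all tested genes, 40.7 percent were higher and 24 percent lower untreated, and 18.9 percent higher and 52.0 percent lower induced. Isocitrate lyase AOL_s00075g130, an enzyme of the glyoxylate cycle, had 86.2 ± 14.6 TPM in untreated PkaC1 deletion-labelled libraries and 236 ± 2.56 TPM in WT (-1.45 ± 0.10), and 349.6 ± 16.7 TPM and 115 ± 5.10 TPM after induction (1.59 ± 0.10). At each time 3 of 10 were lower and 0 higher with the Acy deletion label, against 15.6 percent of all tested genes lower untreated and 13.7 percent induced. Of 15 tested genes on the sterol list, 14 were lower and 0 higher in induced PkaC1 deletion-labelled libraries, 9 of them also after scaling, against 52.0 percent of all tested genes lower as deposited and 32.1 percent lower both ways. In the same libraries 3 of 4 UPC2 matches and the ECM22 match were lower. Lanosterol synthase AOL_s00054g195 had 11.4 ± 0.898 TPM and 75.9 ± 2.35 TPM in WT (-2.64 ± 0.10). In induced Acy deletion-labelled libraries 9 of 17 were higher and 2 lower, 3 and 2 of them both ways, against 45.5 and 13.7 percent of all tested genes. Of 26 tested genes on the leucine, lysine and arginine list, 3 were higher and 19 lower in induced PkaC1 deletion-labelled libraries. Of these, 3 and 14 held both ways. The shares of all tested genes were 18.9 and 52.0 percent as deposited and 18.9 and 32.1 percent both ways. The LEU3 match was lower there too. Both proline use genes were tested, with 1 higher and 1 lower in the same comparison. The words for ABC drug transporters matched no gene.

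Adjacent members did not always move together. By locus tag, 7 pairs of members were direct neighbours. In untreated PkaC1 deletion-labelled libraries AOL_s00078g533 and AOL_s00078g534 fell by nearly the same amount, as given above. AOL_s00173g125 and AOL_s00173g126, matches of uaY and PPR1, fell together in induced ones (-0.91 ± 0.13 and -0.84 ± 0.09) and on induction in deletion-labelled libraries (-1.96 ± 0.13 and -1.54 ± 0.09) and WT (-1.35 ± 0.13 and -1.49 ± 0.09). AOL_s00110g287 and AOL_s00110g288 differed. In untreated PkaC1 deletion-labelled libraries AOL_s00110g288 had 7.08, 3.22 and 2.45 TPM, against 0.47, 0.49 and 0.44 TPM in WT, and AOL_s00110g287 had 26.6 ± 5.14 TPM against 23.6 ± 1.76 TPM. AOL_s00110g288 reached 1 TPM in this experiment only in untreated deletion-labelled libraries, so it passed the filter through that group and its test is not given. It had 0.07, 0.3 and 0 TPM in induced PkaC1 deletion-labelled libraries, against 0.17, 0.75 and 0 TPM in WT, where AOL_s00110g287 rose. Counting the 8 comparisons of 2 groups over the 103 members tested in both experiments, 26 members passed in 4 and 2 in 7, which is 25.2% and 1.94%, against 27.0% and 3.51% of all genes tested in both. In all 4 comparisons of deletion-labelled with WT libraries 18 members passed, 17.5%, against 14.7% of all genes.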

How the data were processed

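For each experiment the authors deposited 1 table of TPM per gene with annotation columns, and 1 of their own log2 fold changes with adjusted p-values. The tools named, per the submitters' processing notes, are HISAT2 and StringTie, and the genome build and versions are not given in the sources used here. TPM holds no read counts, so the sequencing depth is unknown, counting intervals cannot be given, and an exact 0 is reported as listed at 0. TPM is relative to all transcripts of a library, so a change in a few abundant genes moves all others. The 8 columns of the authors' group means were not used, and no p-value of theirs is printed. The sign of the log2 fold change in the authors' deposited table matched for 69 of 71 (untreated) and 62 of 74 (induced) members called between PkaC1 deletion-labelled and WT libraries, and for 63 of 80 and 70 of 74 called on induction in deletion-labelled and WT libraries. In the Acy experiment the matches were 40 of 40, 63 of 65, 1 of 1 and 15 of 15 in the same order. Of members called both ways, signs matched for all but 1.

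Genes with at least 1 TPM in at least 3 libraries were fitted on log2(TPM + 1) with limma 3.58.1 (R 4.3.3, trend and empirical Bayes), the 4 groups of an experiment in 1 fit or all 8 in a joint fit. P-values were adjusted (Benjamini-Hochberg) over 8977, 9617 and 9877 genes in the PkaC1, Acy and joint fits. Members called at an adjusted p below 0.05 are counted. The filter kept 103, 106 and 106 of 107 members, and AOL_s00110g288 and AOL_s00173g375 passed it in the PkaC1 experiment through 1 group alone, had to differ there, and stay among the counts. The fit was checked beforehand on simulated data. Alternatives were libraries scaled to the same median, no filter, a filter at 5 TPM, a pseudocount of 0.1, robust empirical Bayes, a fit of only the 2 groups compared, the replicate number as a block, each library left out, and PkaC1 WT groups as 1 library each. Replicate numbers were taken as pairing samples for none of the comparisons except induction in Acy deletion-labelled libraries, where deviations of same-numbered libraries correlated at 0.209, 0.137 and 0.435. There the block left 1 member called.

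The members and lists were chosen with earlier results of these data known, and roles were assigned to Swiss-Prot matches after values had been seen. Named members are, in each comparison, up to 6 of the largest called changes in each direction (5 TPM or more in the higher group, no overlap), the 5 most abundant, and further members picked for their role after their values were seen. Sequences were not used here, and gene start positions served only to order genes when neighbours were sought.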

Additional observations from a re-analysis of the deposited data

Results flagged for a closer look

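Tests of the difference between 2 responses or 2 deletion effects passed for many members. All differences below are limma log2 values of the first-named response minus the second.

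The response to induction differed between PkaC1 deletion-labelled and WT libraries for 76 members, against 71.9 percent of all tested genes. Among those named for this comparison it was higher in deletion-labelled libraries for ARA1, AOL_s00083g275 (2.52), AOL_s00076g409 (2.41) and AOL_s00215g778 (2.24), and lower for the pro1 match AOL_s00076g45 (-2.44). ARA1 and AOL_s00215g778 fell on induction in WT, and the pro1 match fell in both strains.

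In the Acy experiment the response differed for 12 members, against 19.3 percent of all tested genes. The 12 became 3 to 21 on leaving out 1 library, and 8 with the replicate block. The response was higher in deletion-labelled libraries for the ASG1 match AOL_s00076g698 (1.14), the thi1 match AOL_s00079g92 (1.08) and AOL_s00076g274 (1.08). The call of AOL_s00076g274 was lost after scaling and with the replicate block (limma adjusted p = 0.0603). The call of AOL_s00079g92 was lost on leaving out any of 4 libraries. The response was lower for AOL_s00007g302 (-1.77).

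The untreated deletion effect in the PkaC1 experiment differed from that in the Acy experiment for 59 members, against 48.8 percent of all tested genes. It was higher for the ptaR3 match AOL_s00110g185 (2.83) and AOL_s00006g245 (2.35). It was lower for the uaY match AOL_s00078g533 (-3.18), the acu-15 match AOL_s00078g534 (-3.0) and ARA1 (-2.72). The fold changes of AOL_s00006g245 were 1.24 ± 0.12 and -1.11 ± 0.19, of opposite sign.

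After induction the deletion effects differed for 68 members, against 69.9 percent of all tested genes. The effect in the PkaC1 experiment was higher for AOL_s00110g287 (4.87), AOL_s00076g409 (3.58) and the prlR match AOL_s00078g224 (2.76). It was lower for AOL_s00006g285 (-2.72), the thi1 match AOL_s00079g92 (-2.50) and AOL_s00076g22 (-2.43).

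The response of WT to induction differed between experiments for 53 members, against 56.5 percent of all tested genes. It was higher in the PkaC1 experiment for the xlnR match AOL_s00006g84 (1.54), the aurR2 match AOL_s00079g268 (1.45) and the curR match AOL_s00004g69 (1.31). It was lower for ARA1 (-3.70), AOL_s00215g778 (-2.98) and the DAL81 match AOL_s00078g85 (-2.82). The DAL81 match had 9.05 ± 2.50 TPM in induced and 78.8 ± 0.783 TPM in untreated WT of the PkaC1 experiment, and 52.6 ± 10.7 TPM and 60.1 ± 4.86 TPM in WT of the Acy experiment.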

How the results depend on the processing

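Depth is unknown, groups hold 3 libraries, and scaling turned the majority direction of calls in 4 of 5 comparisons of the PkaC1 experiment and 3 of 5 of the Acy experiment, and evened it in the Acy response difference. With PkaC1 WT groups as 1 library each, members called numbered 36 (untreated), 43 (induced), 39 (induction in WT), 45 (difference between responses), and 36 and 34 for untreated deletion effects and WT responses between experiments. Without a filter, the Acy response difference held 7 members. With only the 2 groups compared, induction in Acy deletion-labelled libraries held 0, against 1 in the fit of 4 groups. The cause was not tested. Leaving out 1 library gave 66 to 75, 65 to 75, 77 to 83, 66 to 76 and 72 to 76 members in the PkaC1 experiment (untreated, induced, induction in deletion-labelled libraries, induction in WT, difference between responses). In the Acy experiment the ranges in the same order were 31 to 45, 52 to 67, 0 to 4, 5 to 16 and 3 to 21. The 5 arose without WT induced replicate 2, the 3 without Acy deletion-labelled induced replicate 2 and the 21 without its replicate 3. Between experiments they were 53 to 60, 64 to 70 and 49 to 55. The replicate block gave 70, 71, 80, 70 and 76 members, 38, 62, 1, 13 and 8, and 57, 69 and 52 in the same orders, and changed no count by over 1.5 times. No called sign reversed among the named members in the settings tried, but some calls were lost. Over the named members and comparisons, the calls lost were 5 of 200 on scaling, 4 of 200 without a filter and 3 of 200 with a pseudocount of 0.1. With only the 2 groups compared 4 of 144 were lost, with the replicate block 1 of 200, and on leaving out 1 library 81 of 2832. The largest share of calls was lost with PkaC1 WT groups as 1 library each.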

Other observations

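Some genes near a few members by locus tag are given as picked examples, and other neighbours are not described. In the comparisons below 64.7, 70.9, 42.1 and 59.2 percent of all tested genes were called, in the order used there. The pairing was not tested, and not every example moved with its member. Beta-mannosidase AOL_s00215g262, next to the GAL4 match, had log2 fold changes of -1.13, -1.27, -1.24 and -1.17 in untreated and induced PkaC1 and untreated and induced Acy deletion-labelled over WT libraries. Near but not next to the GAL4 match, AOL_s00215g259, annotated as 6-methylsalicylic acid decarboxylase atA, had -1.79, -1.25, -2.04 and -2.57 in the same order. Copper amine oxidase AOL_s00110g186, next to the ptaR3 match, had 0.18, -2.01, -1.56 and -2.15, against 0.45, -1.12, -2.39 and -1.67 for the match itself. The phosphoketolase AOL_s00076g411, near AOL_s00076g409, had -1.48, 1.67, 1.05 and 0.17, against -0.33, 2.08, -1.16 and -1.50 for AOL_s00076g409.

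A further assembled locus of 450 bases, MSTRG.10586, with a domain of the family, is listed with the PkaC1 experiment only and so lies outside the 107. It had 0 to 4.09 TPM.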
